A study of Mus musculus with 11 samples.

Results

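The respiratory chain genes described here were taken by name. They are the genes of a whole-genome mouse Affymetrix GeneChip whose symbol begins with Ndufa, Ndufb, Ndufc, Ndufs, Ndufv, Uqcr, Cox4, Cox5, Cox6, Cox7 or Cox8, together with Sdha, Sdhb, Sdhc and Sdhd. Of the 18194 genes that had a probe set of their own, 73 fitted this rule, with 148 probe sets among them, and each gene was represented by its probe set with the highest mean log2 signal. The rule uses symbols and no measured value, although it was set with earlier results of these data known. They comprised 34 complex I subunits, 8 complex I assembly factors whose symbols begin with Ndufaf, 4 complex II subunits, 8 complex III subunits, 9 widely expressed and 7 tissue-restricted complex IV subunits, the pair Ndufa4 and Ndufa4l2, and Cox7a2l, which is a supercomplex assembly factor rather than a subunit. Cox7b, Ndufs6 and Ndufa11 fit the name rule but had no probe set of their own and were not analysed here.

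RNA came from 3 regions of the testes of 7-week-old W/Wv mice, compound mutants at the Kit locus whose seminiferous tubules are largely depleted of germ cells. All arrays share this genotype and age, and no treatment separates the regions. The rete testis (RT), the network of channels that drains the testis, was represented by 3 arrays. The Sertoli valve (SV), the terminal tubule segment beside the RT, and convoluted seminiferous tubules (ST) from a site away from the RT had 4 arrays each. Each array was made from a pool of 20 testes dissected under trypan blue that had been injected by way of the efferent ducts, and according to the methods the SV pieces probably carried some RT cells.

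The respiratory chain is built in the inner mitochondrial membrane. Complex I takes electrons from NADH and complex II from succinate, both pass them through ubiquinone to complex III, cytochrome c carries them to complex IV, and there they reduce oxygen. Complexes I, III and IV pump protons, and the ATP synthase uses the resulting gradient. Most subunits are nuclear genes used by nearly every cell, whereas several complex IV subunits exist as a widely expressed form and a form restricted to muscle, lung or testis. In the tubules, Sertoli cells are known to favour glycolysis and to pass lactate to germ cells.

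Promoter windows were at hand for 59 of the 73 genes (RefSeq, GRCm38.p6; 61 windows, each of 250 bases before and 50 after a gene's start). The core letters of the site of nuclear respiratory factor 1 (NRF1), which is known to bind many such promoters, are GCGCA and GCGC with any 1 base between them, and they were present on either strand in 18.6% of these genes (11), in 5.19% of all 27025 genes with a window and in 13.8% of the 3821 genes whose mean signal was at least 1000. Both strands were searched for every motif, and none of the motifs contains another. The ETS letters CCGGAAG were in 22.0% of the respiratory chain genes, 9.93% of all genes and 22.9% of the bright genes. The YY1 letters AAGATGGCG were in 8.47%, 1.64% and 4.45%. The SP1 letters GGGCGG were in 49.2%, 38.2% and 74.9%. The TATA letters TATAAA were in 10.2%, 15.7% and 8.69%. The ERRα letters TCAAGGTCA were in 1.69% (Sdhd alone), 0.466% and 0.288%. The like set for the bright genes is the 48 respiratory chain genes with a window and a mean signal of at least 1000. In these the NRF1 letters were in 16.7%, ETS in 27.1%, YY1 in 10.4%, SP1 in 45.8%, TATA in 8.33% and ERRα in 2.08%. The genes with the NRF1 letters included members that were higher in RT than in ST (Sdha, Ndufa5), lower (Ndufa8) and not called (Sdhd, Ndufs5), and 1 stretch of 30 bases is shown for each so that the same core can be read beside these different values. Capitals mark the match, each line is written 5′ to 3′ on the gene's strand, and all lie before the start:
Sdha, chr13:74350276-74350305, minus strand: ggggcgtgttGCGCAGGCGCagaatcttcc
Ndufa5, chr6:24527697-24527726, minus strand: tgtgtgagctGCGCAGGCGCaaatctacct
Ndufa8, chr2:36049349-36049378, minus strand: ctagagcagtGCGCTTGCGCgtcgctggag
Sdhd, chr9:50603909-50603938, minus strand: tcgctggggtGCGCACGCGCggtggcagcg
Ndufs5, chr4:123718265-123718294, minus strand: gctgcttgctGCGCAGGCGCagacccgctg
The match in Ndufa8 is on the opposite strand. The 4 tissue-restricted complex IV genes with a window held none of the NRF1, ETS or YY1 letters in it. The 250 bases before the start of the pair with the largest changes, Cox6b2 and Cox7b2, are given below (GRCm38.p6, both on the minus strand), with the SP1 letters in capitals:
Cox6b2, chr7:4753095-4753344: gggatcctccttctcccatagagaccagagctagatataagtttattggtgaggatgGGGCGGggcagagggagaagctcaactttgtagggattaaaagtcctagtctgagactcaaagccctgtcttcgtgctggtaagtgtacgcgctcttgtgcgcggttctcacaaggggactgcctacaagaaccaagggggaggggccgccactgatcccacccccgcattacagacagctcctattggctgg
Cox7b2, chr5:71548206-71548455: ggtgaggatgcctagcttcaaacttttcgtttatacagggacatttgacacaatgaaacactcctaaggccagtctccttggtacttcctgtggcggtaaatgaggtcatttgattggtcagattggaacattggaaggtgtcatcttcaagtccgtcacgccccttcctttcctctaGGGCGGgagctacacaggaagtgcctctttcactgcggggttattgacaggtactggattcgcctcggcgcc
A match of letters is a description of the window and not a bound site.

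Values are MAS5.0 signals on a linear scale, and a difference is called where limma's adjusted p over all 45101 probe sets was under 0.05. Every array had the same trimmed mean signal of 500.0, while the median signal of the RT arrays was 99.6–110 and that of the ST arrays 65.8–85.1. Centring the arrays on these medians moved the median difference between RT and ST over all probe sets from 0.13 to −0.29 (log2), so results that depend on that choice are given both ways. The RT and ST labels matched their markers. All 9 rete epithelium markers were higher in RT than in ST (8 on centred arrays). Of 11 Sertoli markers, 7 were lower in RT (9 on centred arrays). The SV arrays also carried rete marker signal, with 8 of the 9 higher in SV than in ST. The median log2 difference of the 9 was 4.08 there, beside 6.46 for RT against ST, and this limits every comparison of SV. All 9 markers of ciliated and efferent duct cells were also higher in RT (8 on centred arrays). Their summed signal was 7239–14885 in RT and 2234–2458 in ST. Germ cell markers summed to 401–867 in RT and 2297–6208 in ST. In these bulk samples fewer cells of a type and less RNA per cell cannot be told apart, and the part of cell composition in the results below was not tested.

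On the deposited scale the respiratory chain genes differed little between RT and ST. Against ST, 9 of the 73 genes were higher in RT (5 without RT replicate 1), 8 were lower and 56 were not called, where 25.3% of all probe sets were called (14.5% higher, 10.8% lower) and 45.5% of the 7184 probe sets with a mean signal of at least 1000 (15.7% higher, 29.8% lower). The median log2 difference of the 73 genes was 0.05, with a range from −2.98 to 2.90, beside 0.13 for all probe sets and −0.10 for the bright probe sets. Of the 73 genes, 35 (47.9%) lay within 0.25 of 0, compared with 23.6% of all and 31.4% of bright probe sets. A difference of over 2-fold in either direction was seen in 3 genes (4.11%), Cox6b2, Cox7b2 and Ndufb4, compared with 30.0% of all and 17.4% of bright probe sets. Of the 57 members with a mean signal of at least 1000, 8 were higher, 6 lower and none over 2-fold. These shares within 0.25 and over 2-fold hold for the deposited scale. On centred arrays Ndufa10 (−1.04), Ndufa8 (−1.03), Ndufaf1 (−1.23) and Cox7a1 (−1.30), all of at least that mean signal, also passed 2-fold. The RT and ST arrays did not overlap for 14 genes with RT above and 9 with RT below. This held for 20.1% and 13.6% of all probe sets and for 19.5% and 33.5% of bright ones. With the replicate number as a block, 18 genes were higher and 13 lower (20.6% and 13.9% of all probe sets), and these included the 9 and the 8. The others were Ndufa7, Ndufa13, Ndufb5, Ndufb9, Ndufc2, Ndufv2, Ndufaf3, Ndufaf7 and Uqcrc2, higher by 0.25 to 0.40 in that fit, and Ndufa3, Ndufc1, Ndufs5, Ndufaf4 and Cox6a1, at −0.70 to −0.32. On arrays centred on their medians, 1 gene was higher and 15 were lower (7.84% and 19.4% of all probe sets), and the members' median was −0.37, beside −0.29 for all probe sets and −0.52 for bright ones. The 15 included all 8 called lower without centring, together with Ndufa3, Ndufb10, Ndufc1, Ndufaf4, Sdhd, Cox6a1 and Cox8c, and the 1 was Cox6b2. Wherever a gene is given as not called without further words, this refers to the fit without block or centring. After quantile normalization 17 were higher and 8 lower (11.9% and 13.9% of all probe sets). The direction of the group as a whole therefore turned with the scaling, and the statements on complexes below hold for the deposited scale unless the centred value is named.

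**Figure D1:**
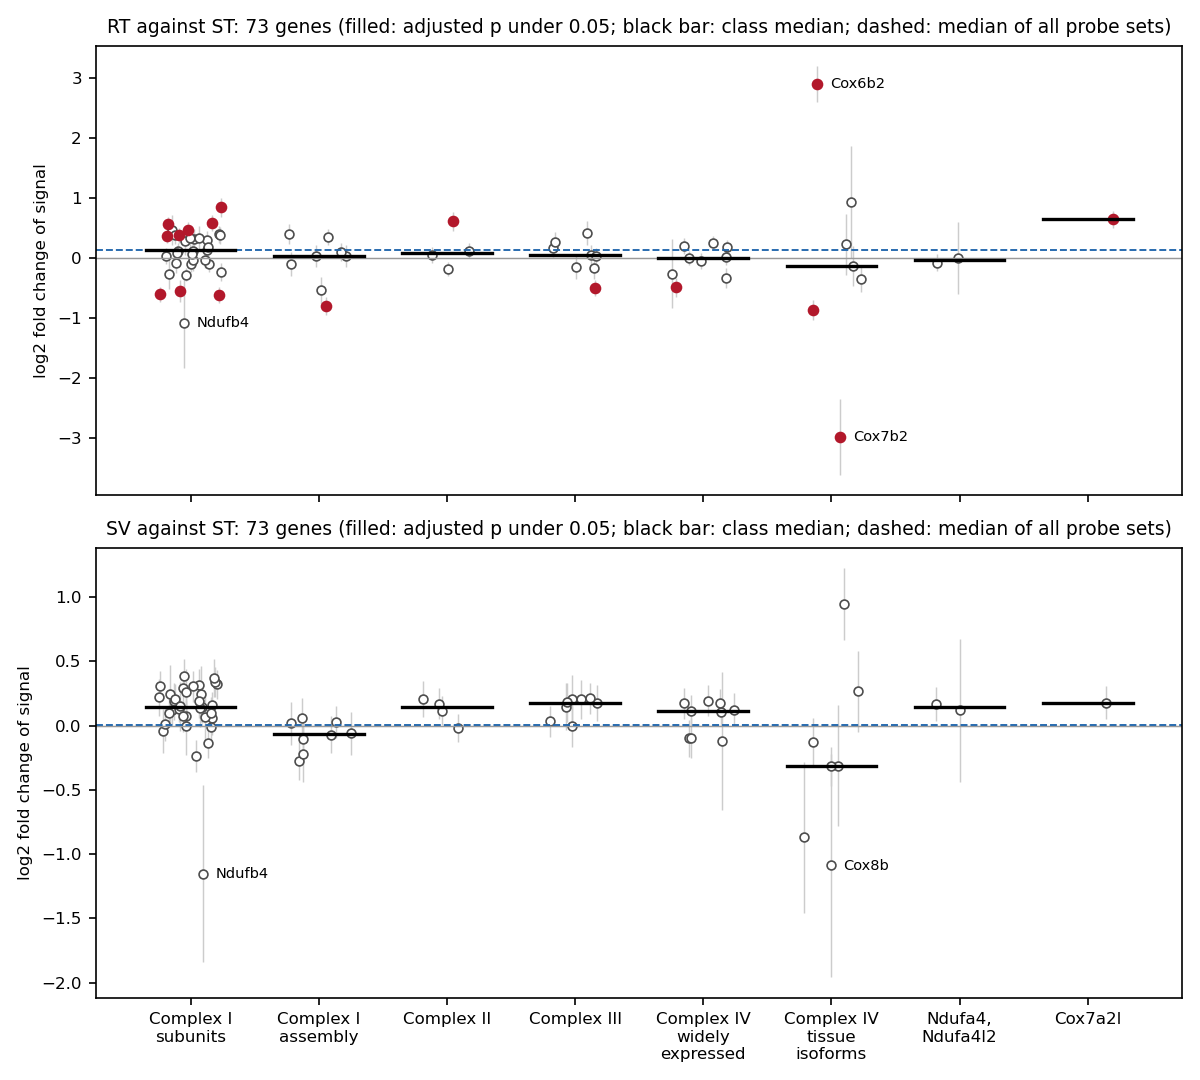
Log2 fold change of signal for each of the 73 genes by class, RT against ST above and SV against ST below; error bars are limma standard errors, filled points have an adjusted p under 0.05, black bars are class medians and the dashed line is the median of all probe sets (0.13 above, 0.00 below). Most genes lie close to 0 in both comparisons, Cox6b2 and Cox7b2 stand at opposite ends in RT, and no point is filled for SV.

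Between SV and ST, no respiratory chain gene was called in either direction by limma, where 2.27% of all and 3.34% of bright probe sets were. The methods' t-test after Benjamini-Hochberg adjustment also called none. The median difference was 0.12 on the log2 scale (0.01 after centring), and 56 genes (76.7%) lay within 0.25 of 0, compared with 66.4% of bright probe sets. All SV arrays lay above all ST arrays for 6 genes and below them for none. This held for 4.64% and 2.81% of all probe sets and for 5.8% and 5.44% of bright ones. With the replicate block, 5 genes were higher in SV, where 4.85% of all probe sets were. These were Cox6b2 (0.95, adjusted p = 0.0256), Ndufs7 (0.37, 0.0383), Ndufa5 (0.34, 0.0418), Ndufv3 (0.31, 0.0343) and Ndufa12 (0.30, 0.0454). Between SV and RT, 6 genes were higher in SV and 2 lower, where 14.1% of all probe sets were called (6.44% higher, 7.68% lower). Of the bright probe sets, 27.6% were called there (19.9% higher, 7.75% lower). The 6 were Ndufa3, Ndufa8, Ndufaf1, Uqcrq, Cox7a1 and Cox7b2, and each lost its call in at least 2 of the 11 fits that left out an array, so the count was 0 without RT replicate 1, 2 without RT replicate 2, 3 without SV replicate 3 and at most 5. The 2 lower were Cox6b2, which was called in every such fit, and Cox7a2l, which lost its call in 9. With the block, SV exceeded RT in 13 genes and was lower in 5 (10% and 14.3% of all probe sets). The SV mean lay between the RT and ST means for 16 of the 17 genes called between RT and ST (94.1%), a share close to that of the bright probe sets called there (93.6%). The exception was Uqcrq. RT against ST and SV against ST share the ST arrays, and SV against RT shares arrays with both.

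**Figure D2:**
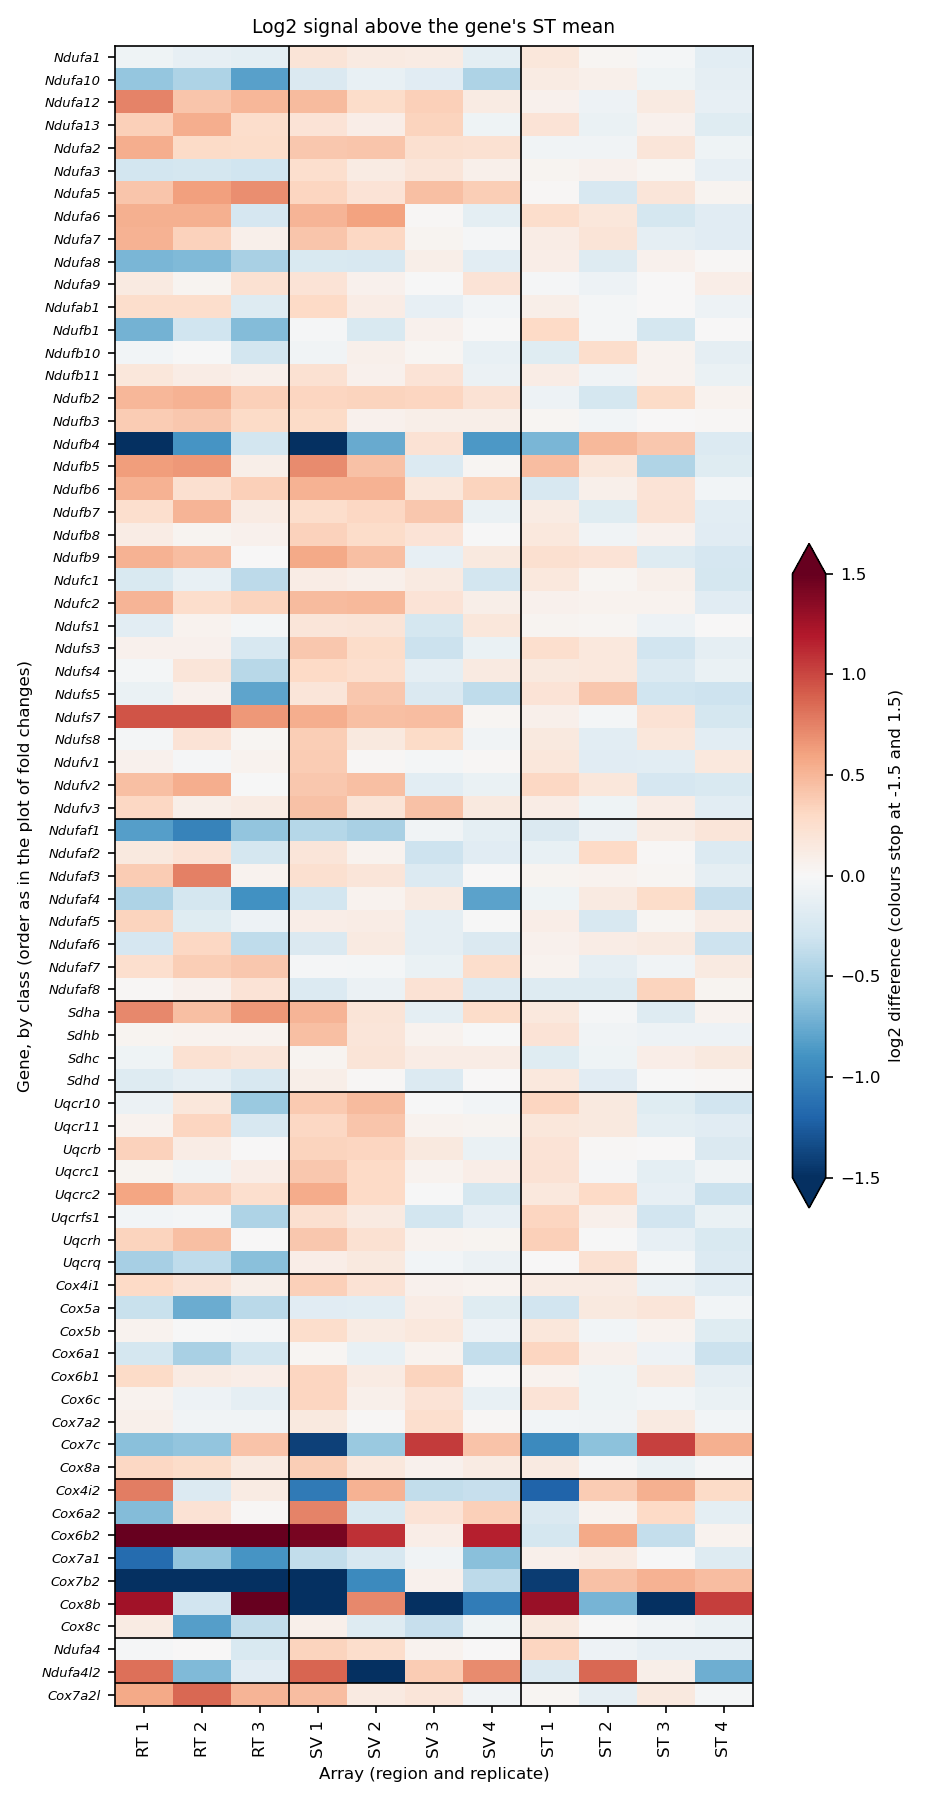
Log2 signal of each gene on each of the 11 arrays above that gene's mean over the 4 ST arrays, with genes in rows by class and arrays in columns; lines separate classes and regions, and colours stop at −1.5 and 1.5. Most rows are pale across all regions, whereas Cox6b2 is red and Cox7b2 blue on all 3 RT arrays, and Cox7c and Ndufb4 vary among arrays of the same region.

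Of the 34 subunits of complex I, the NADH dehydrogenase, 6 were higher in RT than in ST, 3 were lower and 25 were not called (26.5% called, near the 25.3% of all probe sets and below the 45.5% of bright ones), with a median of 0.13 (−0.30 after centring). Ndufs7, an iron-sulfur subunit close to the ubiquinone site, had signals of 3640, 3636 and 2965 in RT, 2767, 2588, 2613 and 1930 in SV, and 1992, 1859, 2208 and 1578 in ST. All RT arrays exceeded all SV and ST arrays. The difference from ST was 0.84 ± 0.16 on the log2 scale (SE; adjusted p = 0.00129, 1.79-fold), and 0.42 after centring (adjusted p = 0.191). Ndufa5, an accessory subunit of the peripheral arm, was 2729, 3139 and 3322 in RT and 2081, 1732, 2317 and 2113 in ST, without overlap (0.58, adjusted p = 0.0046). Its SV signals of 2559, 2366, 2807 and 2649 overlapped those of RT and lay above all ST arrays. Ndufa12, an accessory subunit that joins late in assembly, was higher by 0.55 (adjusted p = 0.00662). Smaller increases were called for Ndufb2 (0.46, adjusted p = 0.0191), Ndufa2 (0.37, 0.04) and Ndufb3 (0.36, 0.0232). Each of these 3 calls was lost when RT replicate 1, RT replicate 2 or ST replicate 2 was left out, and that of Ndufa2 also without ST replicate 1, ST replicate 4 or SV replicate 2. None of the 6 was called on centred arrays, where Ndufa2 (−0.052) and Ndufb3 (−0.066) turned sign.

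The complex I subunits lower in RT were Ndufa10, Ndufa8 and Ndufb1. Ndufa10, a subunit of the membrane arm related to nucleoside kinases, had signals of 4797, 5226 and 4091 in RT and 7835, 7567, 6897 and 6527 in ST (−0.62 ± 0.13, adjusted p = 0.00356). In SV it was 6186, 6676, 6407 and 5207, with overlap on either side. Ndufa8, a small subunit of the intermembrane-space side with cysteine motifs, was 3186, 3248 and 3666 in RT and 5489, 4496, 5371 and 5204 in ST (−0.61 ± 0.12, adjusted p = 0.0026), and at 4330–5432 in SV it lay above every RT array. Both kept their calls under centring (−1.04 and −1.03), under the block and with any array left out. Ndufb1 (−0.55, adjusted p = 0.0427) was called at signals of 179–358 and lost its call in 8 of the 11 fits that left out an array. The Ndufv subunits were not called (Ndufv1 0.03, Ndufv2 0.33, Ndufv3 0.17), although with the block Ndufv2 was (0.25, adjusted p = 0.0434). The large iron-sulfur subunit Ndufs1 was not called either (−0.05 ± 0.13, signals 1615–2217 over all 11 arrays). Ndufa1, the brightest probe set of the class, ranged from 14372 to 18369 with a difference of −0.11 ± 0.13. The only probe set of Ndufb4 gave 5.17–67.2, so that its difference of −1.09 ± 0.74 (adjusted p = 0.34) is one between signals near the lower end of the array.

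Of the 8 complex I assembly factors, which help build the complex and then leave it, 1 was lower in RT and none higher. Of all probe sets, 10.8% were lower and 14.5% higher. Ndufaf1, a core member of the assembly machinery for the membrane arm, was 780, 689 and 917 in RT, 1024, 989, 1335 and 1251 in SV, and 1188, 1299, 1504 and 1569 in ST. RT lay below both other regions on all arrays (RT against ST −0.81 ± 0.16, adjusted p = 0.00181; SV against RT 0.53, adjusted p = 0.0391). The call against ST held under centring, the block and each left-out array. Ndufaf4 (−0.55, adjusted p = 0.11) and Ndufaf3 (0.40, adjusted p = 0.106) pointed in opposite directions and were not called, whereas with the replicate block both were (−0.70, adjusted p = 0.00513, and 0.37, adjusted p = 0.0443). On centred arrays Ndufaf4 was lower too (−0.97, adjusted p = 0.0192).

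Complex II, succinate dehydrogenase, also serves the citric acid cycle and is encoded in the nucleus in full. Sdha, the flavoprotein that oxidises succinate, had signals of 8900, 7354 and 8438 in RT, 7661, 6175, 4874 and 6505 in SV, and 6004, 5311, 4734 and 5598 in ST. All RT arrays were above all ST arrays (0.61 ± 0.15, adjusted p = 0.0105, 1.52-fold), whereas the call was lost without RT replicate 1 and on centred arrays (0.18, adjusted p = 0.562). Its partner Sdhb, the iron-sulfur subunit, lay at 5435–5469 in the RT arrays, 5267–7247 in the SV arrays and 4999–6071 in the ST arrays (0.05 ± 0.13). The membrane anchors Sdhc (0.12 ± 0.12) and Sdhd (−0.19 ± 0.12) were not called either, although Sdhd was lower on centred arrays (−0.61, adjusted p = 0.0161). The 4 subunits, which occur in equal copies in the complex, thus ranged from −0.19 to 0.61 between RT and ST.

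Of the 8 complex III genes, 1 was called (12.5%, beside 25.3% of all and 45.5% of bright probe sets). Uqcrq, a small subunit of the cytochrome bc1 complex, was 4024, 4370 and 3674 in RT, 6111, 6292, 5545 and 5369 in SV, and 5699, 6660, 5571 and 4953 in ST. The RT arrays did not overlap with either other region, and the SV signals lay within the range of ST (RT against ST −0.50 ± 0.13, adjusted p = 0.0104; SV against ST 0.03 ± 0.12). The core proteins Uqcrc1 (0.03 ± 0.13) and Uqcrc2 (0.41 ± 0.20, adjusted p = 0.16; 0.29 and 0.0422 with the block), and the Rieske iron-sulfur protein Uqcrfs1 (−0.18 ± 0.18), were not called. Uqcrb was the brightest of the class, at 13817–20503 over the 11 arrays (0.16 ± 0.15, not called). Its other probe set was called higher in RT (0.52).

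Among the 9 widely expressed complex IV subunits, 1 was lower in RT and none higher, with a median of −0.01 (−0.43 after centring). This made 11.1% called, beside 25.3% of all and 45.5% of bright probe sets. Cox5a, which lies on the matrix side, was 9514, 7166 and 9120 in RT and 9850, 13257, 13657 and 11707 in ST (−0.49 ± 0.15, adjusted p = 0.0308). The call was lost without RT replicate 2, ST replicate 2, ST replicate 3 or ST replicate 4, and its 3 probe sets, at −0.49 to −0.37, were not all called. Cox4i1 (0.20 ± 0.13), Cox5b (0.01 ± 0.13), Cox6b1 (0.17 ± 0.13), Cox6c (−0.05 ± 0.14), Cox7a2 (−0.01 ± 0.12) and Cox8a (0.24 ± 0.12) were not called, and neither was Cox6a1, whose signals of 17069–19968 in RT overlapped the 19158–29995 of ST (−0.34 ± 0.17). Cox6a1 was lower in RT with the block (−0.44, adjusted p = 0.00767) and on centred arrays (−0.77, adjusted p = 0.0445). The probe set used for Cox7c gave 73.1–398, and its difference of −0.26 ± 0.58 carried the largest standard error of the class. In the NDUFA4 pair, Ndufa4, now counted as a complex IV subunit, differed by −0.08 ± 0.14, while its hypoxia-inducible relative Ndufa4l2 was at 17.8–91.3 in all arrays.

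The tissue-restricted complex IV isoforms held the largest differences. Of these 7 genes, 1 was higher in RT, 2 were lower and 4 not called, where 25.3% of all probe sets were called (14.5% higher, 10.8% lower). Cox6b2, the testis form of the subunit that joins complex IV dimers (probe set 1435275_at), had signals of 810, 939 and 825 in RT, 307, 245, 123 and 258 in SV, and 95.8, 170, 89.6 and 120 in ST. Every RT array was above every SV array, while SV overlapped with ST. The difference between RT and ST was 2.90 ± 0.30 (7.44-fold, adjusted p = 1.56e-05), or 2.47 after centring, and it ranged from 2.78 to 3.08 with each array left out. SV against RT was −1.95 ± 0.30 (adjusted p = 0.001) and SV against ST 0.95 ± 0.28 (adjusted p = 0.113, or 0.0256 with the replicate block). Beside it, none of 13 germ cell markers was higher in RT and 6 were lower (0 and 8 on centred arrays). All 9 rete and all 9 duct markers were higher (8 of each on centred arrays). Of 6 endothelial markers, 4 were higher on the deposited scale and 1 on centred arrays. These endothelial markers summed to 4093–4517 on the RT arrays, 1268–2898 on the SV arrays and 743–1193 on the ST arrays. The part of any of these cells in the difference was not tested. Its widely expressed counterpart Cox6b1 lay at 10266–11692 in RT and 8711–10510 in ST.

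Cox7b2, another isoform known from testis (probe set 1429687_at), went the other way. It had signals of 7.11, 15.1 and 19.2 in RT, 22.0, 52.0, 105 and 76.8 in SV, and 37.6, 137, 144 and 139 in ST, with RT below all other arrays. The fitted difference of −2.98 ± 0.63 (adjusted p = 0.00329) rests on RT signals near the array's lower end. With a floor of 32 on the signal it was −1.65 and no longer called (adjusted p = 0.0536). Beside it, 6 of 13 germ cell markers were lower in RT (8 on centred arrays), and 6 of the 13 were below 100 in all arrays. The part of germ cells in the result was not tested. Cox8c, a further testis isoform, was at 202–392 in RT and 335–397 in ST (−0.36 ± 0.21, adjusted p = 0.255; −0.78 and 0.0206 on centred arrays).

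Cox7a1, the form of heart, skeletal muscle and brown fat (probe set 1418709_at), was 683, 1014 and 826 in RT, 1184, 1295, 1469 and 989 in SV, and 1608, 1660, 1512 and 1333 in ST. The RT arrays were below all ST arrays (−0.88 ± 0.17, adjusted p = 0.00148, 1.84-fold), a call kept under centring, the block, the floor and each left-out array. SV lay between, overlapping with both (SV against RT 0.56, adjusted p = 0.0397; SV against ST −0.32, adjusted p = 0.404). Beside it, 3 of 7 smooth muscle and myoid markers were lower in RT (summed signal 3752–7486, against 9412–15740 in ST), whereas 6 of 9 striated muscle markers were below 100 in all arrays and 1 was higher (Mb, 3.30) and 1 lower (Myh1, −1.92). Of 6 adipocyte markers, Cidea was lower in RT (−1.11, with 417–1142 against 1212–1628 in ST) and none was higher. The brown fat marker Ucp1 was at most 23.0 in any array, and 4 of the 6 were below 100 in all arrays. These 6 summed to 510–1355 in RT, 3022–3612 in SV and 1285–1747 in ST, and 1 was higher in SV than in ST. The part of muscle and fat cells in the result was not tested. Other muscle and lung isoforms were dim throughout: Cox4i2 at 23.3–91.4, Cox6a2 at 44.0–116 and Cox8b at 2.07–37.9, and none was called. Signals of different probe sets are not on a common scale, so the ratio of an isoform to its counterpart was not computed.

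**Figure D3:**
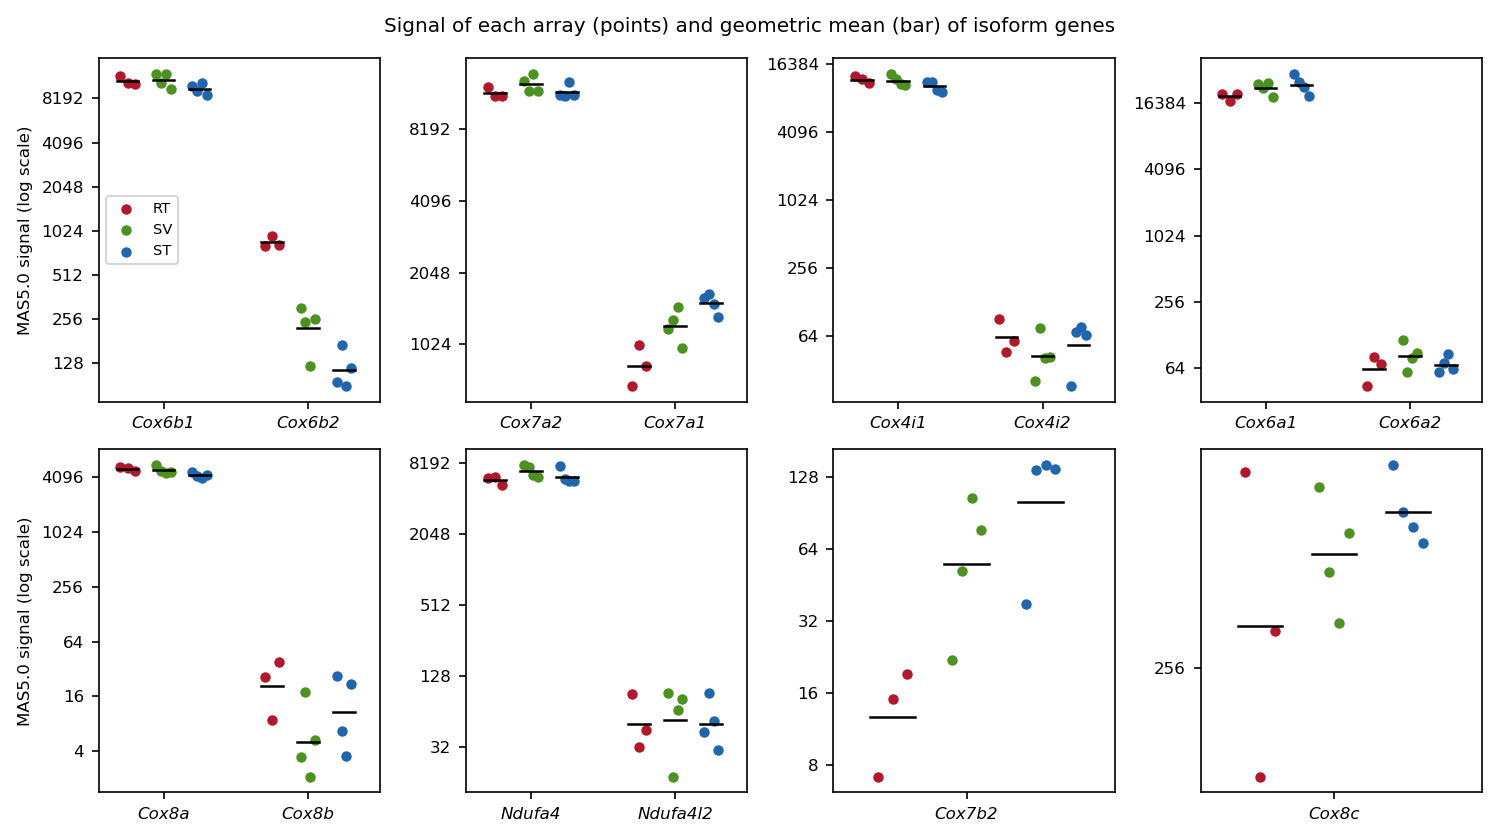
MAS5.0 signal on each array (points; RT red, SV green, ST blue) and its geometric mean (bar) for complex IV isoforms and the NDUFA4 pair, on a log axis that differs between panels; levels can be compared between regions for a gene but not between genes. Cox6b2 is at 810–939 in RT and at most 307 elsewhere, Cox7a1 and Cox7b2 are lowest in RT, and the widely expressed counterparts differ by at most 0.34 on the log2 scale between RT and ST.

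Cox7a2l, which joins complexes III and IV into supercomplexes, was 4663, 5705 and 4481 in RT, 4334, 3449, 3585 and 3033 in SV, and 3211, 2862, 3487 and 3084 in ST. All RT arrays were above all others (RT against ST 0.64 ± 0.14, adjusted p = 0.0043), but not significantly so after centring (0.22, adjusted p = 0.478).

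Between RT and ST, 1 increase (Cox6b2) and 6 decreases (Ndufa10, Ndufa8, Ndufaf1, Uqcrq, Cox7a1 and Cox7b2), and between SV and RT the lower signal of Cox6b2 in SV, were called with both other scalings, the block and each array left out. Arrays 1 and 2 differed from arrays 3 and 4 in some members irrespective of region. Over the 3 regions the mean log2 difference between these sets was over 0.5 for 5 genes (Ndufs5 0.66, Ndufa6 0.62, Ndufb5 0.61, Ndufv2 0.52 and Uqcr10 0.51) and under −0.5 for 3 (Cox7c −1.44, Cox7b2 −1.09 and Ndufb4 −1.03). Both groups made up 10.96% of the members, where 12.5% of bright probe sets passed either limit.

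**Figure D4:**
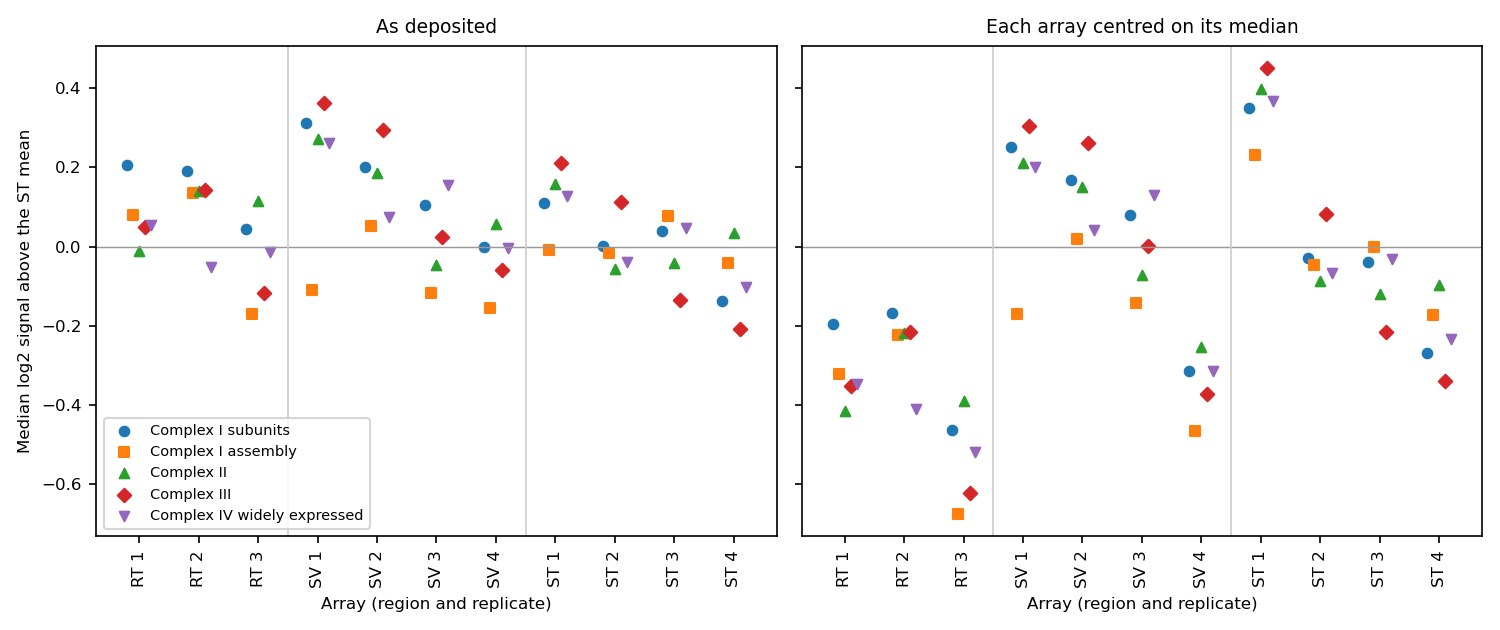
Median log2 signal of each class above its genes' ST means on each array, as deposited (left) and with each array centred on its median (right); each symbol is a class of 4 to 34 genes. On the deposited scale complex I is at 0.04 to 0.21 on the RT arrays, and after centring at −0.46 to −0.17, while the ST arrays spread from −0.27 to 0.35.

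Other genes of mitochondrial energy metabolism were read from lists beside these, and their counts stand against 14.5% higher and 10.8% lower among all probe sets (15.7% and 29.8% among bright ones). Of 17 ATP synthase subunits, none was higher and 1 lower in RT than in ST (Atp5c1, the gamma subunit, −0.58 ± 0.13), with a median of 0.02. Of 16 citric acid cycle and pyruvate dehydrogenase genes, 2 were higher and 4 lower. Pdha1, a pyruvate dehydrogenase subunit, rose by 1.14 ± 0.13 (adjusted p = 3.32e-05; 3300, 3202 and 3110 in RT, 1253–1667 in ST), and Ogdh, of the oxoglutarate dehydrogenase, by 0.60. The succinyl-CoA ligase subunits Suclg1 (−0.86) and Sucla2 (−0.78), and Idh3a (−0.53) and Dlst (−0.46), were lower. Among 8 electron carriers and other dehydrogenases, Sqor, the sulfide oxidoreductase, was higher (1.24 ± 0.23), whereas cytochrome c (Cycs, −0.82 ± 0.17; 12135–16085 in RT and 19221–30202 in ST) and its testis form Cyct (−1.37 ± 0.40) were lower. Of 35 further assembly factors, 5 were higher and 7 lower, among them the copper chaperone Cox17 (0.87) and the complex II factor Sdhaf3 (−1.51 ± 0.15). Of 21 genes of mitochondrial mass and import, 1 was higher (Mfn2, of outer membrane fusion, 0.60) and 8 were lower, among them the import pore Tomm40 (−1.13 ± 0.12), the channel Vdac3 (−0.84) and Timm23 (−0.78). Of the subunits encoded in mitochondrial DNA, 1 had a probe set, mt-Nd5, which was not called (0.30). These counts changed on centred arrays, where 7.84% of all probe sets were higher and 19.4% lower. Higher and lower were then 0 and 4 for ATP synthase, 1 and 7 for the citric acid cycle list and 1 and 2 for the carriers. The further assembly factors gave 0 and 15, and mass and import 0 and 11. The medians of these lists then lay between −0.56 and −0.29.

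Among 13 regulators of mitochondrial biogenesis, 3 were higher in RT and 3 lower (2 and 6 on centred arrays, 3 and 4 with the block), beside the same shares of all probe sets. Ppargc1a, the coactivator PGC-1α that is known to drive respiratory chain genes together with NRF1 and ERRα, was 857, 1057 and 473 in RT, 238, 134, 78.5 and 178 in SV, and 75.2, 63.8, 88.1 and 82.4 in ST. The RT arrays stood well above all others (3.29 ± 0.36, adjusted p = 2.16e-05), and SV overlapped with ST (0.92 ± 0.33, adjusted p = 0.213). Its relative Ppargc1b was higher by 1.91 ± 0.20 (adjusted p = 2.04e-05) and Tfam, the mitochondrial transcription factor, by 0.60 (adjusted p = 0.00259). The third coactivator, Pprc1, was lower (−1.01), as were Gabpb1 (−0.64) and Hif1a (−0.61). Nrf1 (−0.28 ± 0.20), Gabpa (0.29 ± 0.13) and Esrra (0.08 ± 0.13) were not called. Of the 11 respiratory chain genes with the NRF1 letters in their window, 2 were higher in RT (Sdha and Ndufa5), 1 was lower (Ndufa8) and the rest were not called. Of all probe sets, 14.5% were higher and 10.8% lower. With the block Ndufs5 (−0.39), Ndufaf4 (−0.70) and Cox6a1 (−0.44) were lower as well. After centring Ndufa8, Ndufaf4 (−0.97), Sdhd (−0.61) and Cox6a1 (−0.77) were lower, and neither Sdha nor Ndufa5 was called. A link between these letters and the regulators was not tested. On centred arrays the increases of Pdha1 (0.72), Sqor (0.82), Ppargc1a (2.87) and Ppargc1b (1.48) were called and those of Ogdh, Cox17, Mfn2 and Tfam were not, whereas every decrease named in these lists was. With single arrays left out, Ogdh lost its call without RT replicate 1, Dlst without RT replicate 1 or 2, Cyct without RT replicate 1 or 2 or ST replicate 2 or 4, and Gabpb1 without RT replicate 1 or 2 or ST replicate 2 or 3, and the other genes called and named here kept theirs. Between SV and ST, no gene of these 7 lists was called without the block. With it, Atp5j2 (0.31), Idh3g (0.32), Suclg2 (0.45), Pdha1 (0.48) and Sqor (0.50) were higher in SV and Pprc1 (−0.51) was lower, where 4.85% and 2.32% of all probe sets were.

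**Figure D5:**
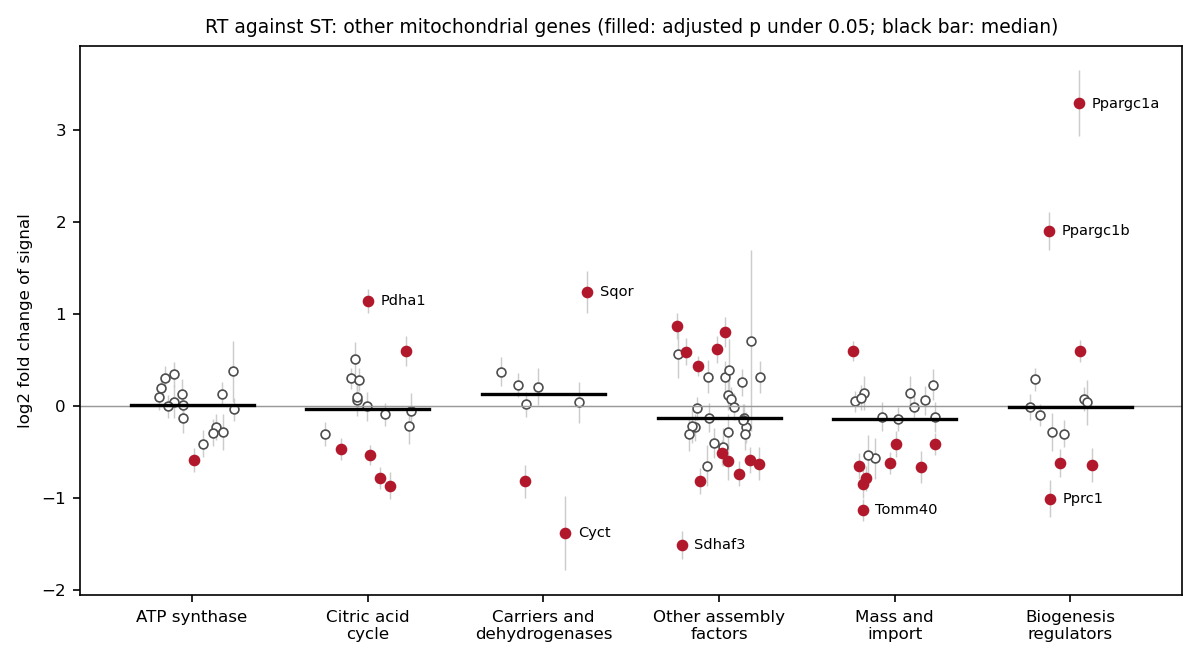
Log2 fold change of signal between RT and ST for 6 lists of other mitochondrial genes; error bars are limma standard errors, filled points have an adjusted p under 0.05 and black bars are medians. The regulators Ppargc1a (3.29) and Ppargc1b (1.91) are far above the medians of all lists, which lie between −0.14 and 0.13 on the deposited scale shown.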

How the data were processed

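Each array measured RNA from a pool of 20 testes on a mouse Affymetrix GeneChip. The authors purified total RNA (RNeasy Micro Kit), made probes with the 3′ IVT Plus reagents and deposited MAS5.0 signal intensity values on a linear scale, scaled so that each array's mean without the lowest and highest 2% is 500.0. The build and version behind these signals are not given in the sources used here. The number of arrays limits precision, and p-values measure the spread between these pools.

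Signals were log2 transformed and fitted with limma 3.58.1 in R 4.3.3 (lmFit, eBayes with an intensity trend) on all 11 arrays, for 3 comparisons, with Benjamini-Hochberg adjustment over 45101 probe sets and no fold threshold. The methods' own rule (over 2-fold, Student's test) was an alternative. The fit was tested on simulated data. Gene names come from the platform annotation: 34958 probe sets carry 1 symbol, 932 several and 9211 none. All 73 members matched RefSeq by Entrez ID, and 10 probe sets that name a member beside another gene were left out. Named genes were the Sdh genes, the isoforms and their counterparts, the brightest and dimmest of each class, up to 4 called genes per class and direction and up to 3 per context list, and other genes were named after their values were seen. The members, lists and this rule were chosen with earlier results of these data known.

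Arrays carrying the same replicate number in different regions had deviations from the region means that correlated at 0.280–0.694 in all 10 pairs. The main fit held region only and did not use this pairing. It entered only the fits described as with the replicate block. Other numbers within replicates 1 and 2, or 3 and 4, correlated at 0.159–0.487, and across these sets at −0.602 to −0.279.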

Additional observations from a re-analysis of the deposited data

Results flagged for a closer look

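For each named gene, the SV and ST groups of 4 arrays were searched for a single array far from the other 3, in 94 groups, of which chance alone would mark about 5%. In 9 groups an array stood apart. ST replicate 1 was high for Sdhb (6071) and Ndufa4 (7735) and low for Cox7b2 (37.6) and Cox4i2 (23.3). ST replicate 3 was high for Cox7a2 (12943). ST replicate 4 was low for Ndufa3 (9061) and Ndufaf6 (220). SV replicate 4 was low for Ndufb2 (3155), and SV replicate 3 was high for Cox5a (13015). Of these genes, Cox7b2, Ndufb2 and Cox5a were called between RT and ST: Cox7b2 kept its call without ST replicate 1, Ndufb2 kept its call without SV replicate 4, and Cox5a kept its call without SV replicate 3.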

How the results depend on the processing

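Counts of called genes are given as higher and lower. Between RT and ST they were 9 and 8, and they moved to 17 and 8 after quantile normalization, 1 and 15 with median centring, 17 and 11 with replicates 1 and 2 against 3 and 4 as a block, 1 and 1 with a 2-fold threshold in limma or with the methods' t-test and fold, and 1 and 1 in replicates 3 and 4 alone. Replicates 1 and 2 alone gave 10 and 7. The cause was not tested, except that replicates 3 and 4 alone hold fewer arrays, with a single RT array assumed to vary like the other regions. With the replicate block they were 18 and 13. Leaving out an array gave 5–10 higher (5 without RT replicate 1) and 6–8 lower. Between SV and ST the counts of 0 and 0 became 5 and 0 with the replicate block and 1 and 0 with the block of replicate sets, and 0–1 and 0–0 with an array left out (1 without SV replicate 3). Between SV and RT, 6 and 2 became 13 and 5 with the replicate block, 10 and 3 with the block of sets, 9 and 1 with median centring, 7 and 5 after quantile normalization, 1 and 1 with a 2-fold threshold or the methods' t-test and fold, 2 and 0 with the t-test after adjustment, 0 and 1 without the intensity trend, 3 and 1 in a fit of those regions alone, 2 and 2 in replicates 1 and 2 alone and 0 and 0 in replicates 3 and 4 alone, with 0–5 and 1–3 when an array was left out. The median log2 differences by class moved mainly with centring. In RT against ST they became −0.30 for complex I, −0.39 for its assembly factors, −0.34 for complex II, −0.38 for complex III, −0.43 for widely expressed complex IV subunits and −0.56 for the isoforms. In SV against RT they became 0.30, 0.27, 0.38, 0.48, 0.43 and 0.54 in the same order, and in SV against ST −0.17 for the assembly factors. Quantile normalization gave −0.20 for the assembly factors, 0.19 for complex II and −0.56 for the isoforms in RT against ST, and 0.12 for the assembly factors in SV against RT. The assembly factors were at −0.16 in RT against ST in replicates 3 and 4 alone, and the isoforms at −0.13 in SV against ST in replicates 1 and 2 alone. Among the called differences of genes named here, 2 changed sign, both in RT against ST with median centring (Ndufa2 −0.052, Ndufb3 −0.066). The replicate block removed no call of a respiratory chain gene. Of 36 genes with at least 2 probe sets of mean signal 100 or more, calls differed between probe sets in 7 (RT against ST), 0 (SV against ST) and 4 (SV against RT), never in opposite directions. Low signal limits Ndufb4, Cox7b2, Cox4i2, Cox6a2, Cox8b and Ndufa4l2, whose mean signal was under 100.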
